A study of Homo sapiens with 6 samples.

Results

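The genes described here encode respiratory complexes II to V of mitochondria. They were taken from the table of read counts by symbol: protein-coding nuclear rows named SDHA to SDHD, SDHAF1 to SDHAF4, CYC1 or CYCS, or with a symbol that starts with UQCR, COX followed by a digit, ATP5F, ATP5M or ATP5P. This rule found 64 of the 61661 rows, with 8 genes of complex II, 11 of complex III including cytochrome c, 26 of complex IV and 19 of complex V. K562, an established line of chronic myeloid leukemia in myeloid blast phase that came from a pleural effusion, was sequenced in 3 groups with 2 libraries each. The shCTR cells carried a nonsense hairpin, and the other groups carried a hairpin against METTL3 (shMETTL3) or METTL14 (shMETTL14). Of these groups, the study's methods describe shCTR and shMETTL3 cells, as stable lines made with lentivirus. They do not describe how the shMETTL14 cells were made. Cells were grown in RPMI1640 with serum and collected in logarithmic growth, and poly(A) RNA was sequenced. No label says whether the libraries of a group came from separate cultures, so p-values measure only the spread between these libraries, which may be technical.

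Complex II (succinate dehydrogenase) links the citric acid cycle to the electron transport chain. Complex III passes electrons from ubiquinol to cytochrome c, complex IV (cytochrome c oxidase) passes them on to oxygen, and complex V (ATP synthase) uses the resulting proton gradient to make ATP. Complexes III, IV and V each need subunits encoded in mitochondrial DNA beside the nuclear ones, whereas all subunits of complex II are nuclear. METTL3 and METTL14 form the core of the enzyme that writes N6-methyladenosine (m6A) on mRNA, and leukemia cells often depend on oxidative phosphorylation.

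Library totals ran from 19292574 to 20115304 reads. METTL3 (ENSG00000165819), the catalytic subunit, had 90.6 and 90.4 CPM in the shCTR, 52.6 and 46.8 in the shMETTL3 and 88.2 and 76.5 in the shMETTL14 libraries, and METTL14 (ENSG00000145388), its RNA-binding partner, had 33.2 and 34.3 CPM in the shCTR, 38.3 and 35.4 in the shMETTL3 and 19.1 and 20.6 in the shMETTL14 libraries. CPM are counts scaled to a common library size with TMM factors, and a log2 fold change compares 2 groups on that scale. METTL3 fell in shMETTL3 cells by a log2 fold change of -0.87 (SE 0.0783, edgeR adjusted p = 3.44e-07), and METTL14 fell in shMETTL14 cells, with -0.76 (SE 0.0886, edgeR adjusted p = 1.40e-05), so that 0.549 and 0.589 of the shCTR level remained. Reads from all 10 erythroid-type markers of K562, such as GATA1 and the globins, summed to between 1960 and 2180 CPM in every library. The 5 lymphoid markers summed to at most 3.87 CPM and the 4 monocyte markers to at most 1.17 CPM. The 5 mesothelial or fibroblast markers summed to 3.30 to 3.85 CPM in shCTR, 6.69 to 6.88 in shMETTL3 and 4.34 to 4.54 in shMETTL14 libraries, with CALB2 at 0 in all. Most of this sum lay on COL1A1, with means of 2.59 CPM in shCTR, 5.6 in shMETTL3 and 3.47 in shMETTL14 libraries. In the same order, MSLN had means of 0.464, 0.352 and 0.638 CPM and DCN of 0.516, 0.707 and 0.281. The part of these markers in the results was not tested. Since these are bulk libraries, fewer cells of a type and less RNA per cell cannot be told apart.

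In shMETTL3 cells, genes of the electron transport chain and ATP synthase were lower by small amounts, with ATP synthase leading. Of the 64 genes, 57 had enough reads to test, and 18 were lower and 1 was higher than in shCTR cells at an adjusted p under 0.05 from edgeR's quasi-likelihood test over 17686 genes. The 18 genes make up 31.6% of those tested, beside 7.73% of all genes tested that were lower and 8.73% that were higher. Called shares rise with read depth, so genes with a mean of at least 50 CPM were also compared: 15 of 36 members were lower there, or 41.7%, beside 17.1% of the 4896 genes of that level. Both shMETTL3 libraries lay below both shCTR libraries in 33 of 57 members, beside 27.3% of all genes tested. The median log2 fold change of the 57 members was -0.11, against 0.0030 for all genes. Of 42 structural subunits 17 were lower and 0 higher, and of 13 assembly factors, which help build a complex without staying in it, 1 was lower, or 7.69%, and 1 higher, with medians of -0.17 and 0.03. At a mean of at least 50 CPM were 32 of the subunits, of which 15 or 46.9% were lower, and only 2 of the assembly factors, of which 0 were, so the 2 classes differ in level and the difference between their shares was not tested. At an unadjusted p under 0.05, 0 structural subunits were higher and 22 lower, and DESeq2 also called 0 members higher. The individual changes lay between -0.38 and 0.31 on the log2 scale. In the heat map the rows of the 10 lower members of complex V are blue in both shMETTL3 columns and paler in the shMETTL14 columns.

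**Figure D1:**
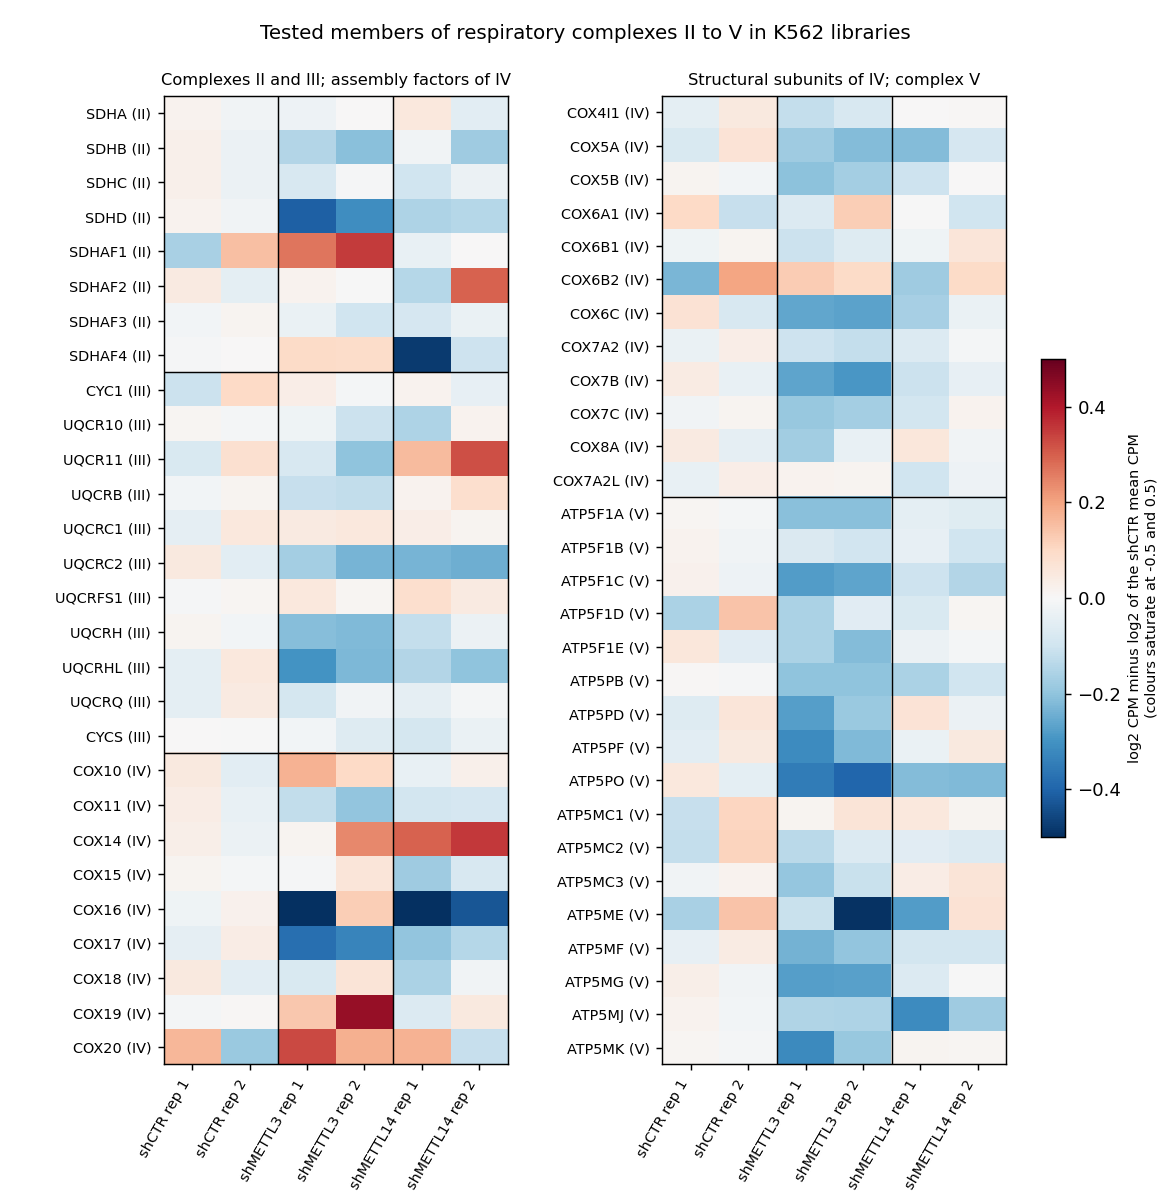
Each row is 1 of the 57 tested genes with its complex in parentheses, each column 1 library, and the colour is log2 CPM minus the log2 of the shCTR mean (blue lower, red higher). Both shMETTL3 columns are blue for all 4 peripheral stalk genes of complex V (ATP5PB, ATP5PD, ATP5PF and ATP5PO), and SDHAF1 is red in both.

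The count of 19 members rests on both shMETTL3 libraries. Without shMETTL3 replicate 1 it was 4 and without shMETTL3 replicate 2 also 4, with the lone library taken to vary like the other groups, and it was 13 to 17 without any 1 of the other libraries. SDHD alone passed without each library in turn. Under 7 other ways of processing, 8 of the 19 passed in every one, namely SDHD, UQCRH, COX17, COX6C, ATP5F1C, ATP5MG, ATP5PF and ATP5PO. With a trend over GC content and length taken out of each library, however, the log2 fold changes of 5 of these 8 were smaller by over 1.5 times: -0.235 for SDHD, -0.12 for UQCRH, -0.14 for ATP5F1C and -0.17 each for ATP5MG and ATP5PF. Scaling by library size alone, in place of TMM, gave 9 lower and 2 higher members, and moved the split over all genes from 1544 higher and 1368 lower to 2161 higher and 855 lower.

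Complex V had the most lower members, 10 of 17 tested or 58.8%, beside 7.73% of all genes tested. At a mean of at least 50 CPM, 57.1% were lower, beside 17.1% of all genes of that level. Complex V had 0 higher members and a median log2 fold change of -0.21. Its summed level decreased by 9.99%, from 4174 and 4205 CPM in shCTR to 3753 and 3789 CPM in shMETTL3 libraries, and was 4032 and 4015 CPM in shMETTL14 libraries. The libraries of the 3 groups did not overlap in this sum.

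The peripheral stalk holds the catalytic head still while the rotor turns, and all 4 of its genes were lower in shMETTL3 cells. ATP5PO (ENSG00000241837), which encodes the OSCP subunit at the top of the stalk, had 31.0 and 28.9 CPM in the shCTR, 23.4 and 22.7 in the shMETTL3 and 25.7 and 25.7 in the shMETTL14 libraries. ATP5PF, for coupling factor 6, had 92.5 and 99.2 CPM in shCTR, 77.1 and 82.3 in shMETTL3 and 93.7 and 99.1 in shMETTL14 cells, and ATP5PD, for subunit d, had 52.6 and 57.5 CPM in shCTR, 45.6 and 48.5 in shMETTL3 and 57.8 and 54.0 in shMETTL14 cells. In ATP5PO the shMETTL14 libraries lay between the other groups, whereas in ATP5PF and ATP5PD they lay in or near the shCTR range. ATP5PB, for subunit b, was the most abundant of the 4 by reads, with 387 and 383 CPM in shCTR, 335 and 335 in shMETTL3 and 345 and 359.8 in shMETTL14 cells. The log2 fold changes in shMETTL3 cells were -0.38 (SE 0.0877, edgeR adjusted p = 0.00595) for ATP5PO, -0.27 (SE 0.0682, edgeR adjusted p = 0.0112) for ATP5PF, -0.23 (SE 0.0748, edgeR adjusted p = 0.0432) for ATP5PD and -0.20 (SE 0.056, edgeR adjusted p = 0.0176) for ATP5PB. ATP5PO was thus at 0.771 of its shCTR level. The calls of ATP5PB and ATP5PD were lost with library size alone, and that of ATP5PD also with DESeq2, without the filter on low counts, in the fit on the compared groups and, at -0.11, with the trend over GC content and length taken out.

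In the catalytic F1 part, 3 of 5 genes were lower. ATP5F1C encodes the gamma subunit, the shaft of the rotor, and had 284 and 275 CPM in the shCTR, 231 and 233 in the shMETTL3 and 260.4 and 253 in the shMETTL14 libraries. ATP5F1A, for the alpha subunit of the catalytic head, had 456 and 449 CPM in shCTR, 391 and 391 in shMETTL3 and 437 and 433 in shMETTL14 cells. The shMETTL3 libraries of both genes lay below all other libraries. ATP5F1E, for the epsilon subunit of the central stalk, had 207 and 191 CPM in shCTR, 178 and 171 in shMETTL3 and 195 and 197 in shMETTL14 cells. Their log2 fold changes were -0.27 (SE 0.0577, edgeR adjusted p = 0.00302), -0.21 (SE 0.0546, edgeR adjusted p = 0.0115) and -0.19 (SE 0.0619, edgeR adjusted p = 0.0441), respectively. ATP5F1B, for the catalytic beta subunit, drew the most reads of all 64 genes, with 1368 and 1333 CPM in shCTR, 1285 and 1263 in shMETTL3 and 1313 and 1259 in shMETTL14 cells, and its change of -0.08 (SE 0.0516, edgeR adjusted p = 0.287) did not pass. ATP5F1D, for the delta subunit, had 125 and 154 CPM in shCTR, 125 and 134 in shMETTL3 and 133 and 141 in shMETTL14 cells. In ATP5F1D the shCTR libraries were the furthest apart of the 3 pairs, and shMETTL3 replicate 1 equalled the lower of them. The call of ATP5F1A was lost with library size alone, and that of ATP5F1E in 4 of the 7 alternatives, among them, at -0.06, the one with the GC and length trend taken out.

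Of 8 tested genes of the membrane part, 3 were lower in shMETTL3 cells: ATP5MG, ATP5MK and ATP5MF, which encode the small subunits g, DAPIT and f, found where ATP synthase dimers meet. ATP5MG had 120.3 and 116 CPM in the shCTR, 97.6 and 97.9 in the shMETTL3 and 112 and 118 in the shMETTL14 libraries. ATP5MK had 77.0 and 75.8 CPM in shCTR, 61.3 and 67.0 in shMETTL3 and 77.2 and 76.9 in shMETTL14 cells, and ATP5MF had 49.6 and 52.5 CPM in shCTR, 43.3 and 44.5 in shMETTL3 and 47.8 and 47.9 in shMETTL14 cells. In ATP5MG and ATP5MK the shMETTL14 libraries lay in or near the shCTR range. The log2 fold changes were -0.28 (SE 0.0633, edgeR adjusted p = 0.00523), -0.25 (SE 0.0682, edgeR adjusted p = 0.0151) and -0.22 (SE 0.0718, edgeR adjusted p = 0.0449). ATP5MF passed in only 2 of the 7 alternatives, and the call of ATP5MK was lost with library size alone and, at -0.13, with the GC and length trend taken out. ATP5MJ, a small proteolipid subunit, had 131 and 128 CPM in shCTR, 116 and 116 in shMETTL3 and 104 and 114 in shMETTL14 cells. Its change in shMETTL3 cells, -0.16 (SE 0.0652, edgeR adjusted p = 0.112), did not pass, although both libraries lay below shCTR.

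ATP5MC1, ATP5MC2 and ATP5MC3 encode the same mature c subunit of the rotor ring with different import sequences. ATP5MC3, the highest of the 3 per kilobase of transcript (552 CPM per kb, against 313 for ATP5MC2 and 141 for ATP5MC1), had 459.6 and 470.5 CPM in the shCTR, 406 and 429.9 in the shMETTL3 and 476 and 486 in the shMETTL14 libraries. ATP5MC2 had 253 and 297 CPM in shCTR, 250.4 and 262 in shMETTL3 and 264 and 262 in shMETTL14 cells and ATP5MC1 78.0 and 91.2 CPM in shCTR, 85.5 and 88.4 in shMETTL3 and 87.8 and 85.3 in shMETTL14 cells. None passed in shMETTL3 cells: the changes were -0.15 (SE 0.0561, edgeR adjusted p = 0.0683), -0.10 (SE 0.0683, edgeR adjusted p = 0.341) and 0.04 (SE 0.0735, edgeR adjusted p = 0.767). For ATP5MC1 the 95% interval of the change ran from -0.11 to 0.19. In ATP5MC1 both knockdown pairs lay inside the span of the shCTR pair, and in ATP5MC2 all knockdown values but that of shMETTL3 replicate 1 did.

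**Figure D2:**
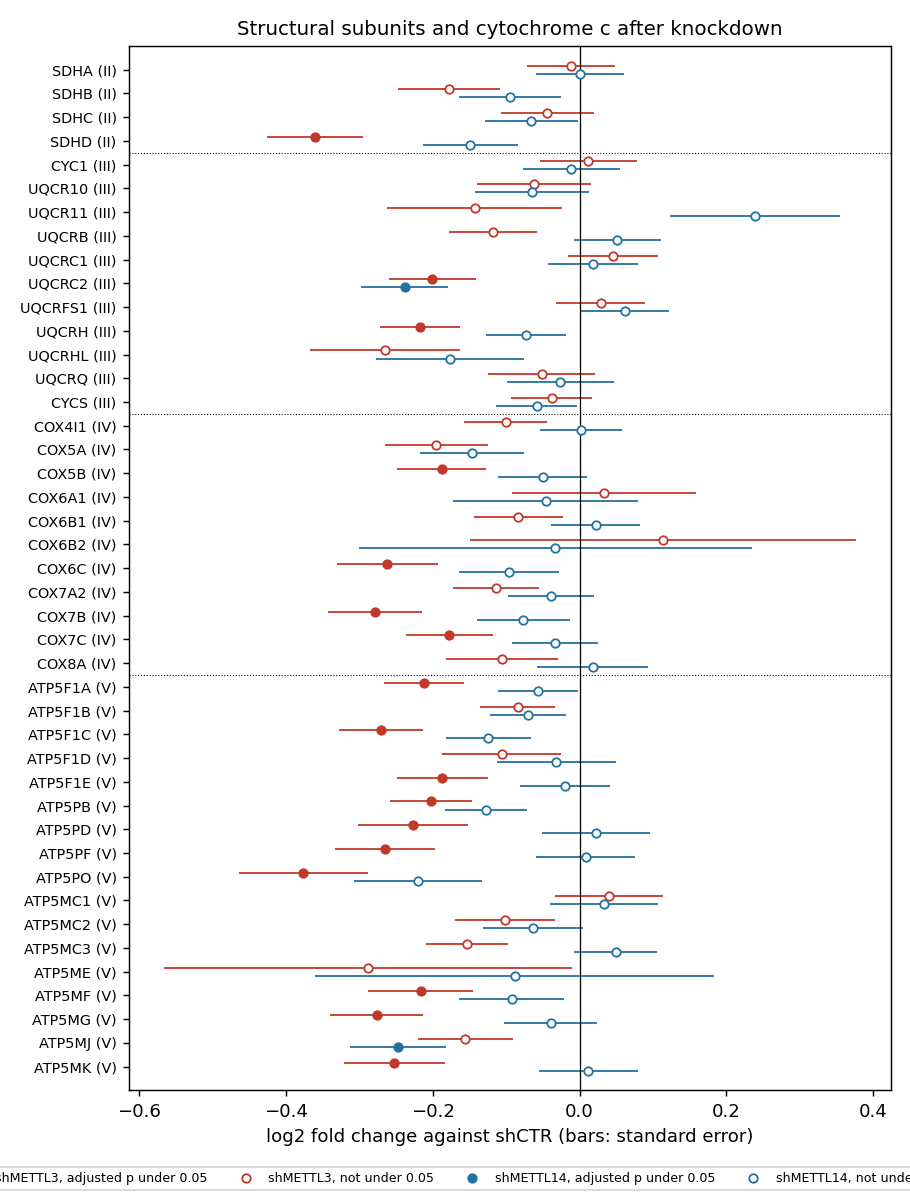
Each row is a tested structural subunit or cytochrome c with its complex, and the points give the log2 fold change against shCTR in shMETTL3 (red) and shMETTL14 (blue) cells with bars of 1 standard error, filled where the adjusted p was under 0.05. The red points of the 4 peripheral stalk genes lie from -0.38 to -0.20, and of the blue points those of UQCRC2 and ATP5MJ are filled.

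Complex IV had 5 lower members of 21 tested, or 23.8%, beside 7.73% of all genes tested. At a mean of at least 50 CPM, 40% were lower, beside 17.1% of all genes of that level. The lower members were 4 structural subunits and the assembly factor COX17. The summed level of complex IV decreased by 8.11%, from 2394 and 2441 CPM in shCTR to 2204 and 2239 CPM in shMETTL3 libraries. COX7B (ENSG00000131174), a small subunit that spans the membrane, had 128 and 122 CPM in the shCTR, 104 and 102 in the shMETTL3 and 116 and 121 in the shMETTL14 libraries. COX6C and COX7C, which are of the same kind, had 152 and 137 CPM in shCTR, 121 and 121 in shMETTL3 and 129 and 142 in shMETTL14 cells, and 313 and 320.4 CPM in shCTR, 278 and 282 in shMETTL3 and 298 and 321 in shMETTL14 cells, respectively. The zinc-binding subunit COX5B had 216 and 212 CPM in shCTR, 186 and 190.0 in shMETTL3 and 199 and 214 in shMETTL14 cells. In each of these 4 genes both shMETTL3 libraries lay below all 4 others, with log2 fold changes of -0.28 (SE 0.0638, edgeR adjusted p = 0.00521) for COX7B, -0.26 (SE 0.0687, edgeR adjusted p = 0.0126) for COX6C, -0.19 (SE 0.0609, edgeR adjusted p = 0.0399) for COX5B and -0.18 (SE 0.0589, edgeR adjusted p = 0.0451) for COX7C. The calls of COX5B and COX7C were lost in 3 and 4 of the 7 alternatives, respectively, and that of COX7B with the GC and length trend taken out, where COX7B had -0.12 and COX7C -0.03.

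COX4I1, the largest nuclear subunit, had 566 and 607 CPM in the shCTR, 539.6 and 554 in the shMETTL3 and 586 and 588 in the shMETTL14 libraries, with a change of -0.10 (SE 0.0559, edgeR adjusted p = 0.237) that did not pass. COX5A, a matrix-facing subunit, had 98.7 and 109 CPM in shCTR, 92.0 and 89.5 in shMETTL3 and 89.4 and 98.2 in shMETTL14 cells. All 4 knockdown values of COX5A lay below both shCTR values, but its changes of -0.19 (SE 0.0705, edgeR adjusted p = 0.0649) in shMETTL3 and -0.15 (SE 0.0704, edgeR adjusted p = 0.243) in shMETTL14 cells were not past the threshold.

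COX17, the copper chaperone that hands copper on for both copper centres of complex IV, was lower by a log2 fold change of -0.35 (SE 0.0902, edgeR adjusted p = 0.011). It had 26.4 and 27.9 CPM in the shCTR, 20.9 and 21.6 in the shMETTL3 and 23.8 and 24.7 in the shMETTL14 libraries, so the shMETTL14 libraries lay between the other groups. The other 8 assembly factors named COX10 to COX20 did not pass. COX19, another copper-linked protein of the intermembrane space, had 18.6 and 18.9 CPM in shCTR, 20.6 and 25.4 in shMETTL3 and 17.9 and 19.5 in shMETTL14 cells, and its change of 0.30 ± 0.108 (SE) had an edgeR adjusted p of 0.0673. COX10 and COX15, which make heme A, changed by 0.14 and 0.03, and COX11, needed for copper insertion, by -0.16, with edgeR adjusted p values of 0.325, 0.847 and 0.13. COX7A2L, which ties complexes III and IV into supercomplexes, had 174 and 182 CPM in shCTR, 180.3 and 179.8 in shMETTL3 and 166 and 175 in shMETTL14 cells and changed by 0.02 ± 0.061 (SE).

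Among the complex III genes, 2 of 11 or 18.2% were lower in shMETTL3 cells, beside 7.73% of all genes tested, and 0 were higher. At a mean of at least 50 CPM, 28.6% were lower, beside 17.1% of all genes of that level. The summed level went from 2444 and 2472 CPM in shCTR to 2309 and 2264 CPM in shMETTL3 libraries and the mean decreased by 6.95%. UQCRH (ENSG00000173660), the acidic hinge protein beside cytochrome c1, had 778 and 764 CPM in the shCTR, 664 and 662 in the shMETTL3 and 709.8 and 756 in the shMETTL14 libraries. UQCRC2, a core protein, had 302 and 282 CPM in shCTR, 259.7 and 248 in shMETTL3 and 248 and 246 in shMETTL14 cells. All knockdown libraries of UQCRC2 lay below both shCTR libraries. The log2 fold changes were -0.22 (SE 0.0546, edgeR adjusted p = 0.00951) for UQCRH and -0.20 (SE 0.0597, edgeR adjusted p = 0.0255) for UQCRC2. The call of UQCRC2 was lost with library size alone and in the fit on the compared groups. UQCRHL, a gene copy closely related to UQCRH whose reads may not be told apart from it, had 18.9 and 20.2 CPM in shCTR, 15.8 and 16.7 in shMETTL3 and 17.6 and 17.0 in shMETTL14 cells and changed by -0.26 (SE 0.102, edgeR adjusted p = 0.0817).

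The nuclear redox subunits of complex III and their electron carrier showed no called change. Cytochrome b (MT-CYB), the redox subunit from mitochondrial DNA, was called higher in both knockdowns and is given below. CYC1, cytochrome c1, had 269 and 311 CPM in the shCTR, 297 and 288 in the shMETTL3 and 294 and 282 in the shMETTL14 libraries. UQCRFS1, the Rieske iron-sulfur protein, had 149 and 151 CPM in shCTR, 156 and 151 in shMETTL3 and 159 and 155 in shMETTL14 cells. CYCS, cytochrome c itself, had 479 and 478 CPM in shCTR, 475 and 458 in shMETTL3 and 451 and 468 in shMETTL14 cells. In shMETTL3 cells the 95% intervals of the log2 fold change ran from -0.13 to 0.15 for CYC1, from -0.10 to 0.16 for UQCRFS1 and from -0.15 to 0.08 for CYCS, so a change as large as that of UQCRH lies outside all 3.

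Complex II had 1 lower and 1 higher gene of 8, or 12.5% each, beside 7.73% and 8.73% of all genes tested. At a mean of at least 50 CPM, 1 of 5 or 20% was lower, beside 17.1% of all genes of that level. The share of complex II thus lies near that of all genes. SDHD (ENSG00000204370), a membrane anchor that binds heme and ubiquinone with SDHC, had 98.5 and 96.3 CPM in the shCTR, 73.3 and 78.5 in the shMETTL3 and 87.5 and 88.3 in the shMETTL14 libraries. The 3 groups did not overlap, and the log2 fold change in shMETTL3 cells was -0.36 (SE 0.0655, edgeR adjusted p = 8.29e-04), the strongest call of all members by adjusted p. Its partner SDHC had 133 and 128 CPM in shCTR, 124 and 130.3 in shMETTL3 and 122 and 128 in shMETTL14 cells and changed by -0.04 (SE 0.0635, edgeR adjusted p = 0.694). SDHB, the iron-sulfur subunit, had 85.3 and 82.2 CPM in shCTR, 75.7 and 72.5 in shMETTL3 and 82.7 and 74.2 in shMETTL14 cells and changed by -0.18 (SE 0.07, edgeR adjusted p = 0.0906), with both shMETTL3 libraries below shCTR. SDHA, the flavoprotein, had 226 and 220.2 CPM in shCTR, 219 and 223 in shMETTL3 and 231 and 215 in shMETTL14 cells, and its 95% interval ran from -0.14 to 0.11.

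SDHAF1, which helps to insert iron-sulfur clusters into SDHB, was the 1 member called higher. It had 18.9 and 23.4 CPM in the shCTR, 25.4 and 26.9 in the shMETTL3 and 20.5 and 21.1 in the shMETTL14 libraries. The change of 0.31 (SE 0.104, edgeR adjusted p = 0.0489) was close to the threshold, and it passed in 2 of the 7 alternatives. It rests on the shCTR libraries, with 0.15 (edgeR adjusted p = 0.372) without shCTR replicate 1 and 0.47 without shCTR replicate 2, was 0.20 with the GC and length trend taken out, and passed in 1 of the 6 fits that left out a library. The shCTR libraries of SDHAF1 also differed the most of all members with a mean of at least 10 CPM, by 0.31 on the log2 scale. SDHAF2, SDHAF3 and SDHAF4 changed by 0.01, -0.06 and 0.10, with edgeR adjusted p values of 0.979, 0.547 and 0.637. The summed level of complex II, 671 and 661 CPM in shCTR libraries, decreased by 5.21% in shMETTL3 and decreased by 3.98% in shMETTL14 cells.

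**Figure D3:**
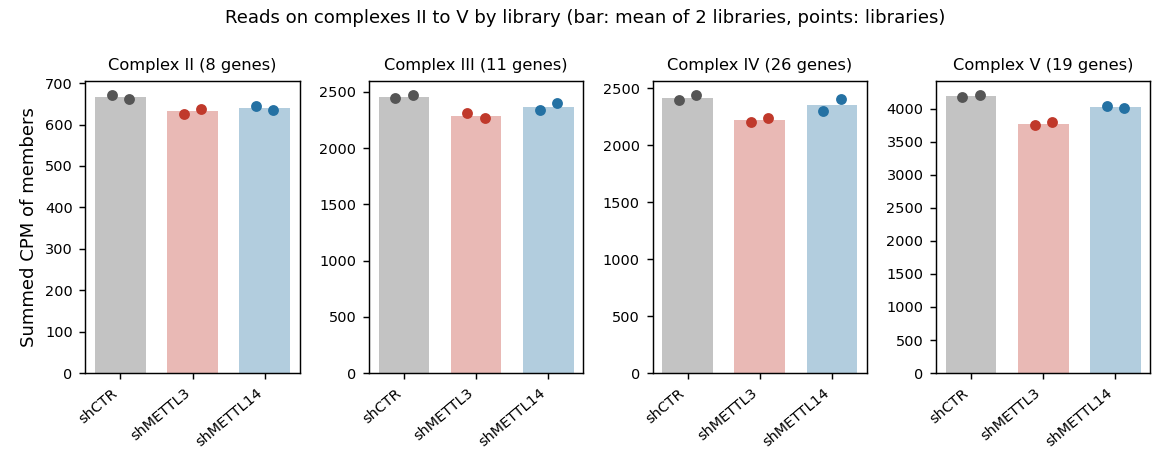
Bars give the mean of the summed CPM of all members of a complex in the 2 libraries of a group, and points give the libraries; each panel has its own axis from 0. With TMM scaling, both shMETTL3 points lie below both shCTR points in each of the 4 panels.

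Over complexes II to V the sum was 9683 and 9779 CPM in shCTR, 8894 and 8928 in shMETTL3 and 9316 and 9455 in shMETTL14 libraries. The mean decreased by 8.43% in shMETTL3 and decreased by 3.55% in shMETTL14 cells, as a description with no test. With 1259 to 1368 CPM, ATP5F1B alone makes up a large part of this sum. All sums rest on the TMM factors, where a larger factor gives lower CPM. The factors were 0.98 in both shCTR, 1.02 in both shMETTL3 and 1.00 in both shMETTL14 libraries. Sums scaled by library size alone were not computed.

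Several members are tissue isoforms, and K562 cells used the widespread form of each. COX4I1 had up to 607 CPM where COX4I2, its counterpart in lung, had 0 reads in all 6 libraries, and COX6A2, the heart and muscle form of COX6A1, also had 0. A count of 0 allows up to 3 reads, or up to 0.157 CPM in a library. COX7A1, the muscle form, had 3 to 11 reads per library against 4854 to 5205 for COX7A2. COX7B2, the counterpart of COX7B, had 0 to 3 reads, COX8C, a counterpart of COX8A, 0 to 2, and COX6B2, a testis form, 33 to 43. ATP5MGL, a copy of ATP5MG, had 0 to 4 reads and the readthrough gene ATP5MF-PTCD1 0 to 2. All of these but COX6B2, 7 genes in all, were below the filter on low counts and were not tested. COX6B2 had 1.67 and 2.25 CPM in shCTR, 2.14 and 2.1 in shMETTL3 and 1.73 and 2.09 in shMETTL14 cells and changed by 0.11 ± 0.263 (SE) in shMETTL3 cells.

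In shMETTL14 cells few members differed from shCTR. UQCRC2 and ATP5MJ were lower and 0 were higher, 3.51% of the 57 tested, beside 3.26% of all genes tested that were lower and 3.43% that were higher, so the share lies near that of all genes. At an unadjusted p under 0.05 the members had 7 lower and 1 higher, and DESeq2 called the same 2. UQCRC2 changed by -0.24 (SE 0.0597, edgeR adjusted p = 0.0193) and ATP5MJ by -0.25 (SE 0.0654, edgeR adjusted p = 0.026), on the library values given above. Both calls held in all 7 alternatives. Without shCTR replicate 1, shMETTL14 replicate 1 or shMETTL14 replicate 2, however, 0 members were called, and 1 was without either shMETTL3 library. The median log2 fold change was -0.05, and both shMETTL14 libraries lay below both shCTR libraries in 21 of 57 members, or 36.8%, beside 23.9% of all genes tested. ATP5PO, SDHD and SDHAF4 changed by -0.22, -0.15 and -0.28, with edgeR adjusted p values of 0.147, 0.195 and 0.211. Because both knockdowns were set against the same shCTR libraries, their values are given side by side and their likeness was not used as a result.

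Compared directly, shMETTL3 and shMETTL14 cells differed in 9 members, 8 lower and 1 higher in shMETTL3, beside 5.49% of all genes tested that were lower and 6.65% that were higher. From complex V these were ATP5PF, with a log2 difference of -0.27 (SE 0.0682, edgeR adjusted p = 0.0104), ATP5MK with -0.26 (SE 0.0681, edgeR adjusted p = 0.0135), ATP5PD with -0.25 (SE 0.0746, edgeR adjusted p = 0.0331), ATP5MG with -0.24 (SE 0.0634, edgeR adjusted p = 0.0169) and ATP5MC3 with -0.20 (SE 0.0561, edgeR adjusted p = 0.0212). In ATP5MC3 the difference came with values above shCTR in both shMETTL14 libraries and below it in both shMETTL3 libraries. COX7B differed by -0.20 (SE 0.0639, edgeR adjusted p = 0.044) and SDHD by -0.21 (SE 0.0658, edgeR adjusted p = 0.0409). UQCR11, a small complex III subunit, had 12.6 and 14.1 CPM in the shCTR, 12.6 and 11.6 in the shMETTL3 and 14.8 and 16.6 in the shMETTL14 libraries. It was thus lowest in shMETTL3 and highest in shMETTL14 cells, with a difference of -0.38 (SE 0.117, edgeR adjusted p = 0.0377), although neither knockdown passed against shCTR. SDHAF1 was higher in shMETTL3 cells by 0.33 (SE 0.104, edgeR adjusted p = 0.0444). The count depends on each library: without 1 of the shMETTL3 or shMETTL14 libraries 0 to 2 members were called, and without either shCTR library 16. ATP5MG, ATP5MK and ATP5PF passed in all 7 alternatives, ATP5MK with -0.17 once the GC and length trend was taken out, a setting that ended the calls of ATP5PD, COX7B and SDHD.

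The neighbouring genes of the pathway were read in the same way. Of the 37 tested nuclear subunits of complex I, which feeds electrons from NADH into the chain, 10 were lower and 0 higher (16 and 0 at an unadjusted p under 0.05) in shMETTL3 cells, with a median of -0.13. In shMETTL14 cells 1 was lower, or 2.7%, beside 3.26% of all genes tested. In shMETTL3 cells the lower genes are 27.0% of those tested in complex I and 31.6% in complexes II to V, beside 7.73% of all genes tested. The difference between the shares of the complexes was not tested. At a mean of at least 50 CPM, 37.5% of the complex I genes were lower, beside 17.1% of all genes of that level. Complexes III to V also hold 6 subunits from mitochondrial DNA, of which 1 was higher in shMETTL3 and 2 in shMETTL14 cells, with 0 lower. Of all genes tested, 8.73% were higher in shMETTL3 and 3.43% in shMETTL14 cells. MT-CYB, cytochrome b of complex III, had 53.5 and 66.0 CPM in the shCTR, 88.5 and 80.6 in the shMETTL3 and 80.7 and 76.6 in the shMETTL14 libraries. It rose by 0.50 (SE 0.0844, edgeR adjusted p = 3.91e-04) in shMETTL3 and by 0.40 (SE 0.0847, edgeR adjusted p = 0.00651) in shMETTL14 cells. Both changes rest on the same shCTR libraries. Per kilobase of transcript, MT-CYB had 52.3 CPM in shCTR cells, against 6810 for MT-CO1, 7470 for MT-CO2, 8300 for MT-CO3 and 3390 for MT-ATP6. The level of MT-CYB may thus be understated, and what this means for its changes was not tested. MT-CO1, the catalytic subunit of complex IV, had 10760 and 10240 CPM in shCTR, 11280 and 10850 in shMETTL3 and 12530 and 12770 in shMETTL14 cells, and rose in shMETTL14 cells by 0.27 (SE 0.0463, edgeR adjusted p = 0.001), whereas its change in shMETTL3 cells was 0.08 (SE 0.0463, edgeR adjusted p = 0.288). MT-CO2, MT-CO3, MT-ATP6 and MT-ATP8 changed by 0.06, -0.02, 0.09 and 0.15 in shMETTL3 cells and did not pass. Libraries were selected for poly(A) RNA, and how this acted on mitochondrial transcripts was not tested.

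From 36 further assembly and accessory genes, 34 were tested, and in shMETTL3 cells 2 rose and 1 fell, shares below the 8.73% and 7.73% of all genes tested. TMEM70, which helps assemble ATP synthase, had 34.4 and 37.6 CPM in the shCTR, 43.3 and 47.2 in the shMETTL3 and 38.6 and 40.6 in the shMETTL14 libraries and rose by 0.33 (SE 0.08, edgeR adjusted p = 0.00771). COA7, an assembly factor of complex IV, had 81.7 and 83.6 CPM in shCTR, 91.8 and 99.6 in shMETTL3 and 86.4 and 83.3 in shMETTL14 cells and rose by 0.21 (SE 0.0667, edgeR adjusted p = 0.0348). LRPPRC, which stabilises mitochondrial mRNA, had 485 and 449 CPM in shCTR, 409.7 and 387 in shMETTL3 and 419 and 407 in shMETTL14 cells and fell, with a log2 fold change of -0.23 (SE 0.0591, edgeR adjusted p = 0.0111). In shMETTL14 cells HIGD1A, a small protein of the inner membrane, was the 1 gene called, with -0.23 (SE 0.0654, edgeR adjusted p = 0.0403). FDXR, which passes electrons to ferredoxin, was the 1 gene of the 34 that differed between the knockdowns, by 0.23 (SE 0.0653, edgeR adjusted p = 0.0226).

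Some features that the choice of genes did not use were laid beside the calls, as a description with no test. The 18 lower members had a median transcript length of 689 bases and a median GC content of 45.3%, the 39 other tested members 1153 bases and 51.3%, and 12526 tested protein-coding genes 2840 bases and 49.7%. GGACT, a core form of the m6A motif, occurred in 12 of the 18 lower members (66.7%) and 31 of the 39 others (79.5%). Of all protein-coding genes tested, whose transcripts are longer, 90% held it. Medians per kilobase were 1.27 and 1.16 in the 2 sets of members, against 0.950 over all protein-coding genes tested. These are transcripts of the reference annotation, and no m6A was measured in these libraries. GC content also moved with the replicates of 1 group: across 52 members with at least 10 CPM, the log2 ratio of shCTR replicate 2 to replicate 1 had a Pearson correlation of 0.552 with GC content, against 0.234 in shMETTL3 and -0.129 in shMETTL14 cells. The 52 genes share the same pair of libraries in each value. With a trend over GC content and length taken out of each library, 14 members were called in shMETTL3 cells, all lower, and 12 of them were among the 19.

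Promoters are shown because nuclear genes of these complexes are known for sites of the factors NRF1, GABP (an ETS factor) and YY1. Several members, called and not called, carry matching letters. RefSeq windows of GRCh38.p14, from 250 bases before to 50 after each start, were matched by symbol for 50 of the 64 genes. ATP5F1D, CYC1, ATP5MF-PTCD1, COX7A1, ATP5MF, ATP5F1B, ATP5MC3, UQCRHL, UQCRB, COX11, COX4I2, ATP5MGL, COX6C and SDHC were not matched. Searched on both strands, the NRF1-type letters GCGCATGCG were in 4 of 16 lower members and 4 of 31 other tested members with a window, or 25.0% and 12.9%, and in 1.92% of all 35116 windows. With any base at the sixth position (GCGCANGCG, which includes the first motif) the shares were 31.2%, 38.7% and 7.52%. The ETS-type letters CCGGAAG were in 56.2%, 41.9% and 10.3%, and the YY1-type letters AAGATGG in 37.5%, 12.9% and 5.84%. The shares of members count a gene if any of its windows matched, with 60 windows for the 50 genes. The share over all windows is per window, so the 2 kinds of share are not alike. A match is a stretch of letters, not a measured site. The following windows of 30 bases lie before a start that the RefSeq table gives for the gene and are given on its strand, 5′ to 3′, with the motif or its reverse complement in capitals.
SDHD, NRF1-type, chr11:112086753-112086782, plus strand: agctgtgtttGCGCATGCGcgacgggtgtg
SDHD, ETS-type, chr11:112086785-112086814, plus strand: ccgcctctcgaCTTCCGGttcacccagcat
COX17, NRF1-type, chr3:119677503-119677532, minus strand: gggcctccttGCGCATGCGctgaagggggc
ATP5F1C, NRF1-type, chr10:7788145-7788174, plus strand: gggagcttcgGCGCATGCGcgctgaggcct
ATP5PF, NRF1-type, chr21:25735155-25735184, minus strand: cactcaaagaGCGCATGCGtacagagcaag
ATP5PF, YY1-type, chr21:25735093-25735122, minus strand: taggcgaagaaAAGATGGcggaggctgtgc
UQCRH, ETS-type, chr1:46303641-46303670, plus strand: agtgtgccgcaCTTCCGGccagatcgccgg
ATP5PD, ETS-type, chr17:75047052-75047081, minus strand: ccgggaagataCTTCCGGaaccagccctca
ATP5MC2, NRF1-type, chr12:53676105-53676134, minus strand: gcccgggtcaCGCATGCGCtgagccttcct
SDHB, ETS-type, chr1:17054142-17054171, minus strand: cacccgggaaaCCGGAAGccgcctcccact
SDHD holds both the NRF1-type and the ETS-type letters, and ATP5PF holds all 3 kinds. Members that were not called hold such letters as well, among them ATP5MC2 and SDHB. Of these, ATP5ME also holds all 3 kinds, and COX6A1 holds both the NRF1-type and the ETS-type letters. By the outermost bounds of the genes in GENCODE 29, 2 of the 10 windows lie wholly before the gene (COX17 and ATP5PD), those of SDHD (NRF1-type) and SDHB cross its first base, and the other 6 lie inside it.

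Reads that fall where exons of 2 genes overlap are set aside by HTSeq in its usual mode, and the mode and strand setting used here are not given in the sources used here. Exons of GENCODE 29 (GRCh38) were compared for this reason. Of the 42 tested structural subunits, 19 had no exon base in common with another gene and 14 had over 10%. ATP5ME, for subunit e of ATP synthase, shares 61.6% of its exon bases with MYL5 on the other strand and had 1.82 and 2.25 CPM in the shCTR, 1.89 and 1.45 in the shMETTL3 and 1.68 and 2.15 in the shMETTL14 libraries. At 5.58 CPM per kb it lay far under the other subunits of complex V that were tested, the next being ATP5PO with 32.1 CPM per kb and 25.5% of its bases shared. COX16, which shares 36.0% with a readthrough gene, had 9 to 18 reads per library, and COX20, which shares 72.0% with HNRNPU, had 66 to 97. In MT-ATP8, whose reading frame overlaps MT-ATP6, 135 to 174 reads were counted, against 44239 to 52294 for MT-ATP6. For these genes the level may be understated, which was not tested. Sharing and level did not always go together: COX8A shares 34.5% and had 95.3 CPM per kb, whereas COX18 shares 0% and had 5.29. Among the 18 lower members 9 shared over 10% of their bases and 6 shared none, so that SDHD (12.2%), COX17 (17.6%), ATP5PF (23.1%) and ATP5PO (25.5%) rest on exons that are shared in part, whereas UQCRH, COX6C, COX7B and ATP5F1C do not.

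**Figure D4:**
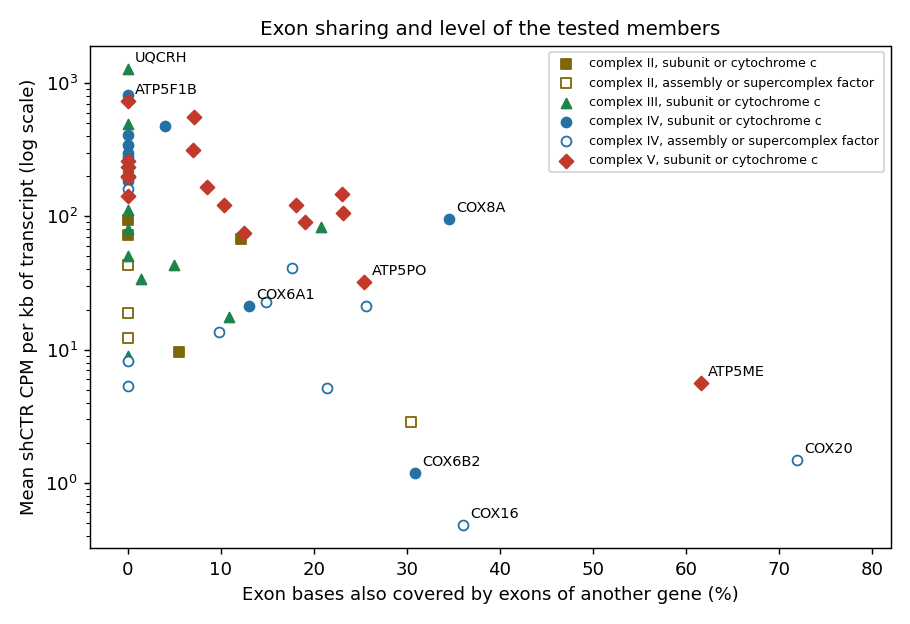
Each point is a tested member, placed by the share of its exon bases that exons of another gene cover and by its mean shCTR level per kilobase of reference transcript (log scale), with filled symbols for subunits and cytochrome c. ATP5ME, COX16 and COX20 lie at the lower right, with 61.6%, 36.0% and 72.0% of bases shared and 5.58, 0.480 and 1.49 CPM per kb. COX8A, with 34.5% shared, lies at 95.3 CPM per kb.

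Gene copies are another limit on single members. Among the non-coding rows of the table, 178 pseudogenes carry symbols of these genes, and they held 83.8 to 94.1 CPM per library in sum, or 0.891% to 0.996% of the members' sum. Most of it lay on 3 copies of SDHA: SDHAP1 had 25.8 to 33.0 CPM, SDHAP4 25.1 to 29.8 and SDHAP3 8.89 to 9.58, so SDHA and its copies may have exchanged reads. The primer pairs that the study designed for qPCR of 4 members were matched to transcripts of GENCODE 29, since they show which exons and copies such an assay can see. They are given 5′ to 3′, with capitals for bases in the later of 2 exons where a primer crosses a junction.
ATP5F1A forward: aaactggagcccagcaagat
ATP5F1A reverse: CCATCAGCCctgatagtgcc
ATP5MC1 forward: gaaccgtgtttggcagcttg
ATP5MC1 reverse: gacagggcaaagccaagaatg
COX5A forward: tggCTATCCAGTCAGTTCGC
COX5A reverse: tgttacccagcgagcatcaa
CYCS forward: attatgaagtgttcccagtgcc
CYCS reverse: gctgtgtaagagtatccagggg
All 8 lie in coding sequence. The ATP5F1A pair starts in exon 12 of 13 (chr18:46084573-46084592) and spans 98 bases of mRNA, and it also matches 1 processed pseudogene, ATP5F1AP3. For CYCS, both primers lie in exon 2 (chr7:25124065-25124086 and chr7:25123968-25123989), span 119 bases and match 1 processed pseudogene as well. The COX5A pair (77 bases) and the ATP5MC1 pair (94 bases) match 1 gene each. In the libraries ATP5F1A was called lower in shMETTL3 cells, and ATP5MC1, COX5A and CYCS were not called.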

How the data were processed

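The authors deposited whole-number read counts per gene, not normalized, for 61661 rows and 6 libraries. The submitters' processing notes name HTSeq 0.6.1 and hg38, and the aligner and annotation are not given in the sources used here. Of the rows, 60675 were Ensembl genes, and 986 unannotated loci with a running number for a name held 0.635% to 0.703% of reads and stayed in the totals and tests. Names came from a table of gene symbols (56558 rows) and GENCODE 29 (497 more). Transcript features are those of a representative GENCODE 29 transcript and are approximate. In R 4.3.3, edgeR 4.0.16 (filterByExpr, minimum count 10, TMM) fitted all 6 libraries in 1 quasi-likelihood model, with Benjamini-Hochberg adjustment over 17686 genes and a threshold of 0.05. The alternatives were DESeq2 1.42.0, its size factors, library size alone, no filter, only the compared groups, a replicate block, a GC and length trend removed with mgcv 1.9.3, and each library left out. The steps were tested on simulated data with changes larger than those of the members. How well changes as small as those of the members are found was not tested. Values per library were given for called members, members with qPCR primers and their paralogs. Members and lists were chosen with earlier results of these data known. Copies of a molecule made by PCR were not told apart, so a floor of 3 reads covers counting error only. Chi-square per gene between the 2 libraries of a group averaged 2.59 to 5.52, where sampling alone would give about 1, so no library was counted as a repeat of another.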

Additional observations from a re-analysis of the deposited data

Results flagged for a closer look

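Values that differed between the 2 knockdowns in the edgeR contrast of shMETTL3 with shMETTL14 cells are collected here, on the log2 scale and with no explanation. SDHAF1 was higher in shMETTL3 cells, by 0.33. UQCR11 was lower by the largest amount, with -0.38, and both shMETTL14 libraries lay above all others. In complex V, the difference was -0.27 for ATP5PF, -0.26 for ATP5MK, -0.25 for ATP5PD, -0.24 for ATP5MG and -0.20 for ATP5MC3. It was -0.21 for SDHD and -0.20 for COX7B. None of these 9 passed when shMETTL14 replicate 1 was left out, and the number that passed without shMETTL14 replicate 2, shMETTL3 replicate 1 or shMETTL3 replicate 2 was 0, 0 and 2.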

How the results depend on the processing

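No value below changed sign under any alternative, and METTL3 and METTL14 stayed lower in their own knockdown under every alternative. For shMETTL3 against shCTR, 19 members were called, 11 with library size alone, 12 in the fit on the compared groups and 4 to 17 with a library left out. All genes called numbered 2912, 1885 with DESeq2 and 1102 to 3569 with a library left out. For shMETTL14 against shCTR, the members called were 2, and 0 to 2 with a library left out, and all genes called were 1184, 772 with DESeq2, 766 without the filter and 341 to 1913 with a library left out. For shMETTL3 against shMETTL14, the members called were 9, 4 with DESeq2, 5 with library size alone, 4 without the filter, 15 in the fit on the compared groups and 0 to 16 with a library left out, and all genes called were 2148, 1327 with DESeq2 and 942 to 2953 with a library left out. The median log2 fold change of the members in shMETTL3 cells was -0.11, -0.0576 with library size alone, -0.0746 with the GC and length trend taken out and -0.1388 to -0.0946 with a library left out. In shMETTL14 cells it was -0.05, -0.0241 with library size alone and -0.0758 to -0.0276 with a library left out. Between the knockdowns it was -0.07, -0.0449 with library size alone, -0.0391 with that trend taken out and -0.0853 to -0.0432 with a library left out. The causes were not tested, except that a left-out library leaves its group without a replicate.

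The labels do not say whether same-numbered libraries were paired, and the main fit had no replicate block. Same-numbered libraries had correlations of 0.112, -0.0132 and -0.0272 of their deviations from the group means, which cannot exclude a pairing. With the replicate block, 22 members were called in shMETTL3 cells, 2 in shMETTL14 cells and 13 between the knockdowns, and 3264, 1459 and 2478 genes in all. Of the 19, 2 and 9 members called in the 3 comparisons, 8, 2 and 3 passed in all 7 alternatives, and 1, 0 and 0 with each library left out. With 2 libraries per group, the smallest change of a member that passed in shMETTL3 cells was -0.18 (COX7C) on the log2 scale, and ATP5ME, COX6B2 and COX16, with few reads, had standard errors of 0.278, 0.263 and 0.423.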
